A study of Mus musculus with 40 samples.

Results

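The genes of mouse chromosome 6 were followed through all 40 libraries to describe the RNA level of a whole chromosome. The gene count table held 3192 genes on chromosome 6, of which 718 reached a mean of at least 1 CPM (counts scaled by the library total, with totals adjusted by TMM) over the libraries. Of these, 11 were left out by name, among them *Nanog* and *Tet3*, which leaves 707 genes of 56748 in the table. All 707 were among the 23399 genes that passed the filter on low counts and were tested. They began between position 3498382 (*Vps50*) and 149467547 (*Gm21814*) of GRCm39, and 583 of them were protein coding and 43 long non-coding RNAs. The members were chosen by level, and the lowest of them, *Il17re*, *Cped1* and *Gm43868*, had a mean of 1.02 CPM each, whereas *Gm10010*, *Gm17089* and *Gm44130* just under the minimum had 0.981, 0.984 and 0.996 CPM.

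Total RNA was sequenced from XY mouse embryonic stem (mES) cells and from the epiblast-like cells (EpiLCs) made from them. Naive mES cells were held in 3 µM CHIR, 1 µM PD and LIF, and EpiLCs were collected 48 h after a change to 20 ng/mL FGF and 12 ng/mL Activin A. At each stage, 8 wild-type (WT) libraries stood against 4 libraries each of LBRKO cells, which lack the lamin B receptor, of TKO cells, in which *Lmna*, *Lmnb1* and *Lmnb2* are deleted, and of QKO cells, in which *Lbr* was disrupted on the TKO background. Every library came from its own culture well, so the spread within a group is a spread between wells. The QKO cells were a single clone derived from TKO cells, and the TKO and WT lines came from littermates. Several LBRKO clones were made from WT cells. The labels do not say how many of these clones, or which, gave the LBRKO libraries, so clones and wells cannot be told apart there. By the study's methods, WT cultures were a mixture of cells with a normal karyotype and of populations that had lost the Y chromosome, some of them with a gain of chromosomes 6 and 8. In TKO cultures every population named there had a gain of chromosome 8, in part together with loss of Y. No karyotype of LBRKO cells was given in the sources used here, and copy number was not measured in the files.

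In mammals most genes give RNA roughly in proportion to the number of their copies, so a gained or lost autosome shifts the level of its genes together, gene by gene and along its whole length. Cultured mES cells are known to gain whole chromosomes. Lamins and LBR line the inner face of the nuclear membrane and hold heterochromatin at the nuclear periphery. A shift of all genes on a chromosome and changes of single genes overlay each other in the same ratios. Chromosome 6 carries genes of glycolysis (*Gapdh*, *Hk2*, *Ldhb*), of chromatin and DNA replication (*Chd4*, *Mcm2*, *Ncapd2*) and of the cell cycle (*Cdkn1b*, *Ccnd2*).

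Promoter windows of 250 bases upstream of the RefSeq gene start show how unlike the members are that share this chromosome. Of the protein-coding members, 483 of 583 (82.8%) matched a window in the RefSeq table built on GRCm38.p6, and positions were set on GRCm39 by an exact match of the sequence. Windows were searched for CG, the pair of bases that is methylated in mammals and is its own reverse complement. Members held a median of 15 CG pairs against 6 over all 27018 windows, and 99.4% of members and 91.7% of all windows held at least 1. These members are coding genes that passed a minimum level, whereas the windows of all genes were not filtered, so the difference is no trait of chromosome 6. Windows of 4 genes with large changes are shown 5′ to 3′ on the gene's own strand, with CG in capitals. *Trh* (chr6:92221632-92221881, minus strand, 25 CG pairs) is CG-rich. *Ppm1k* (chr6:57512473-57512722, minus strand, 14 CG pairs) is in the intermediate class of the members (12 to 19). *Smyd1* (chr6:71239266-71239515, minus strand, 2 CG pairs) and *Emp1* (chr6:135339679-135339928, plus strand, 3 CG pairs) are CG-poor. Over all windows, 89.7%, 70.4%, 19.4% and 29.6% held fewer CG pairs than these 4, in that order. The *Emp1* window lies within the span of the gene as counted, so it is not upstream of that gene's first base.
Trh: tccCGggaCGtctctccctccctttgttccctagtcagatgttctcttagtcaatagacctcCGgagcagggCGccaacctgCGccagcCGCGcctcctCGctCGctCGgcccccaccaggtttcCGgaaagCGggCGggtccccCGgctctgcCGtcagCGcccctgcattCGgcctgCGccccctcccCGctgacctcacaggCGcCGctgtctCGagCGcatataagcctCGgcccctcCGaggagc
Ppm1k: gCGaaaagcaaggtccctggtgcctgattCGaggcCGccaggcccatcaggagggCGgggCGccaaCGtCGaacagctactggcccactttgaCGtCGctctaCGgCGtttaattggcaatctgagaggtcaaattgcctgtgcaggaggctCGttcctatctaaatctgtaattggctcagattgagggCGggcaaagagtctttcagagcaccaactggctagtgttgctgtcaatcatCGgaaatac
Smyd1: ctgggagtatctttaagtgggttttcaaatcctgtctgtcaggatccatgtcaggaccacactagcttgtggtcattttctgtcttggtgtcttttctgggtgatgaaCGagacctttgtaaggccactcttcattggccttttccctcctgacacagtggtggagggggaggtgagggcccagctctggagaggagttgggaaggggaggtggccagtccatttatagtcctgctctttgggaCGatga
Emp1: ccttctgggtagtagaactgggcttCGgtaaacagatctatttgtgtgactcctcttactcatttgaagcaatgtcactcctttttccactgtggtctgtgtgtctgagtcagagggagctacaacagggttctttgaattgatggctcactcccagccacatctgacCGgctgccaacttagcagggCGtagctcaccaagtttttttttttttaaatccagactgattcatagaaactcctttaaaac

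The median change of the members hardly moved with the number of CG pairs in the window. In LBRKO mES cells it was 0.33, 0.38 and 0.38 on the log2 scale in members with few, intermediate and many CG pairs. In TKO mES cells the same values were -0.20, -0.20 and -0.19, and in QKO mES cells -0.28, -0.28 and -0.24. EpiLCs gave 0.36, 0.34 and 0.30 in LBRKO and -0.34, -0.40 and -0.32 in QKO cells.

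Libraries held between 22.6 and 48.9 M counts on genes. The naive marker *Prdm14* lay at 28.6 to 57.6 CPM in naive libraries against 0 to 0.273 in EpiLCs, and the primed marker *Fgf5* at 0 to 0.193 against 79.99 to 185 CPM. Other markers differed between the genotypes. In EpiLCs the 5 naive markers summed to 57.1 to 69.4 CPM in WT and 52.6 to 64.3 CPM in TKO cells against 144 to 229.99 CPM in LBRKO and 117 to 139 CPM in QKO cells, with *Esrrb* at 13.9 to 19.3 CPM in WT and 65.3 to 95.2 CPM in LBRKO and *Zfp42* at 19.3 to 26.1 and 39.8 to 90.004 CPM. *Fgf5* was 132 to 157 CPM in WT and 79.99 to 90.2 CPM in LBRKO EpiLCs, and the 4 primed markers summed to 3149 to 3838 and 2522 to 2857 CPM. LBRKO EpiLCs thus held more of the naive and less of the primed marker RNA than WT, and QKO EpiLCs also held more of the naive marker RNA. The part of this in the chromosome 6 values of either mutant was not tested. Of the fibroblast markers *Col1a1*, *Col1a2* and *Thy1* and the primitive endoderm markers *Gata4*, *Gata6* and *Sox17*, none passed 11.6 CPM in any library. *Gata4* gave the highest of these values, at 10.1 to 11.6 CPM in LBRKO against 4.83 to 6.44 CPM in WT mES cells, where *Gata6* and *Sox17* lay at 0.277 to 0.751 and 0.368 to 1.04 CPM in LBRKO cells. WT replicates 1 to 4 had 25.4 to 33.5 M counts and WT replicates 5 to 8 39.4 to 48.9 M. TKO and QKO libraries (22.6 to 33.6 M) lay near the first set in depth and LBRKO libraries (39.7 to 48.1 M) near the second. The labels name no batch. For genes named here whose change moved by over 1.5 times or lost its call against 1 of these WT sets, that value is given. No pair of libraries agreed within sampling noise, so each counted as a sample.

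Chromosome 6 genes were higher in LBRKO cells. For each library, the ratio of every member to the mean of the 8 WT libraries of the same stage was taken on the log2 scale after adding 0.5 CPM, and the median over the 707 members was used as the chromosome's value. These medians were 0.36, 0.30, 0.35 and 0.30 in the 4 LBRKO mES cell libraries and 0.29, 0.30, 0.27 and 0.31 in the 4 LBRKO EpiLC libraries. All 8 lay above every WT library, which ran from -0.027 to 0.0022 in mES cells and from -0.045 to 0.081 in EpiLCs, each WT library being set against the other 7. The means were 0.33 ± 0.031 (SD, n = 4) in mES cells, a fold of 1.25, and 0.29 ± 0.018 (n = 4) in EpiLCs, a fold of 1.23. For scale, an output in proportion to 3 copies in place of 2 would be 0.58 on the log2 scale. Each library is a bulk of many cells, so a change in every cell and a larger change in some of the cells cannot be told apart, and neither can gene copies and RNA per copy. Since the chromosome was chosen with these ratios known, its medians are given as a description with no test.

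Chromosome 6 genes were lower in TKO and QKO cells, by a smaller amount. The library medians were -0.18, -0.17, -0.18 and -0.18 in TKO mES cells and -0.24, -0.13, -0.13 and -0.14 in TKO EpiLCs. In QKO cells they were -0.20, -0.23, -0.23 and -0.22 in mES cells and -0.27, -0.24, -0.26 and -0.23 in EpiLCs. All 16 libraries lay below every WT library of their stage. The means were -0.18 ± 0.0055 and -0.16 ± 0.051 in TKO mES cells and EpiLCs, and -0.22 ± 0.014 and -0.25 ± 0.016 in QKO mES cells and EpiLCs (SD, n = 4 each). As folds, these are 0.886, 0.895, 0.859 and 0.84 of WT. A TKO EpiLC library, replicate 1, stood apart at -0.24, with its other autosomes at -0.11, and without it the TKO EpiLC medians ran from -0.14 to -0.13. WT EpiLC replicate 5 stood apart in the other direction at 0.081, with its other autosomes at 0.093. The LBRKO, TKO and QKO ratios of a stage share the same 8 WT libraries.

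**Figure D1:**
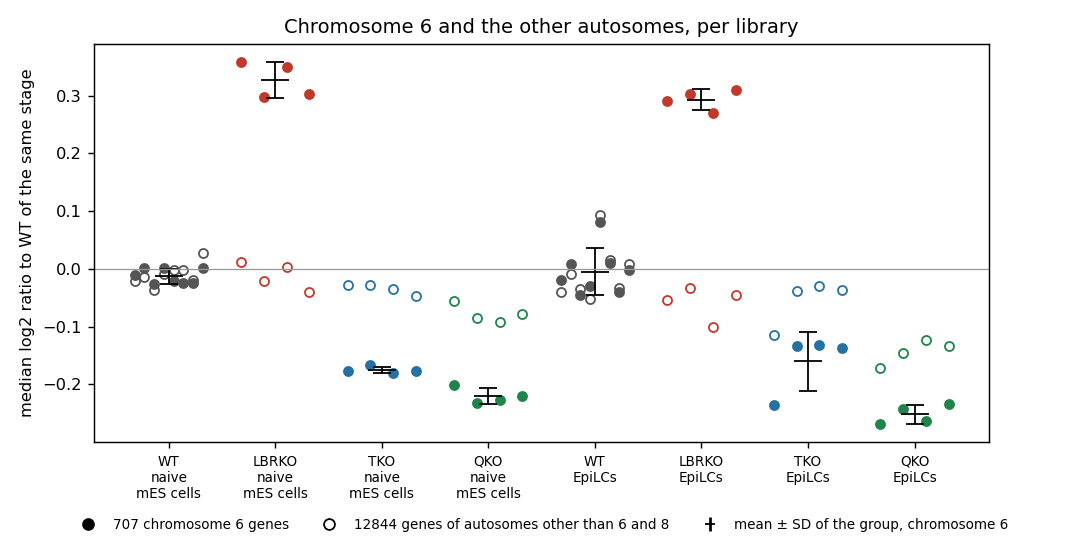
Median log2 ratio to WT over the 707 chromosome 6 genes in each of the 40 libraries (points), by genotype and stage, with the median over the other autosomes in the same library drawn beside it. LBRKO libraries sit between 0.27 and 0.36, TKO and QKO libraries between -0.27 and -0.13, and WT libraries between -0.045 and 0.081.

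Chromosome 6 was the highest of the 19 autosomes in all 8 LBRKO libraries and the lowest in all 16 TKO and QKO libraries, whereas its rank in WT libraries ran from 1 to 19. In LBRKO mES cells the highest other autosome in a library reached 0.046 to 0.11, and in LBRKO EpiLCs -0.028 to 0.067. The margin was narrower in TKO and QKO cells, where the lowest other autosome lay at -0.12 to -0.085 in TKO mES cells and at -0.25 to -0.17 in QKO EpiLCs. After the median of the 12844 genes on the autosomes other than 6 and 8 was taken off, chromosome 6 stood at 0.32 to 0.35 in LBRKO mES cells and 0.34 to 0.37 in LBRKO EpiLCs. The same values were -0.15 to -0.13 and -0.12 to -0.095 in TKO cells and -0.15 to -0.14 and -0.14 to -0.10 in QKO cells, mES cells before EpiLCs. The other autosomes themselves had medians of -0.047 to -0.027 and -0.11 to -0.030 in TKO cells and of -0.093 to -0.056 and -0.17 to -0.12 in QKO cells, so part of the lower QKO values lay on all autosomes.

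The methods name chromosomes 8 and Y beside 6. Chromosome 8 (848 genes) had a mean of library medians of 0.075 ± 0.026 in LBRKO, -0.031 ± 0.011 in TKO and -0.0074 ± 0.012 in QKO mES cells (SD, n = 4 each), and of 0.041 ± 0.046, -0.032 ± 0.035 and -0.095 ± 0.020 in the EpiLCs. The summed level of 4 Y-linked genes (*Kdm5d*, *Uty*, *Ddx3y* and *Eif2s3y*) was 139 to 182 CPM in WT, 130.2 to 139 in LBRKO, 155 to 183 in TKO and 254 to 273 CPM in QKO mES cells, and in EpiLCs 123 to 169, 132 to 137, 115 to 136 and 218 to 241 CPM. QKO libraries stood above all others of their stage in the Y-linked sum. The TKO values of chromosome 8 were slightly negative at both stages, although the methods name a gain of it in every TKO population. The autosomes other than 6 and 8 were below 0 in TKO cells as well. They ran from -0.097 (chromosome 16) to -0.0083 (chromosome 9) in mES cells and from -0.12 (chromosome 16) to -0.024 (chromosome 4) in EpiLCs. Chromosome 8 lay within these ranges and was thus not lowered beside them. Why it did not lie above WT in TKO cells was not tested, nor was the part of these differences in the chromosome 6 values.

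**Figure D2:**
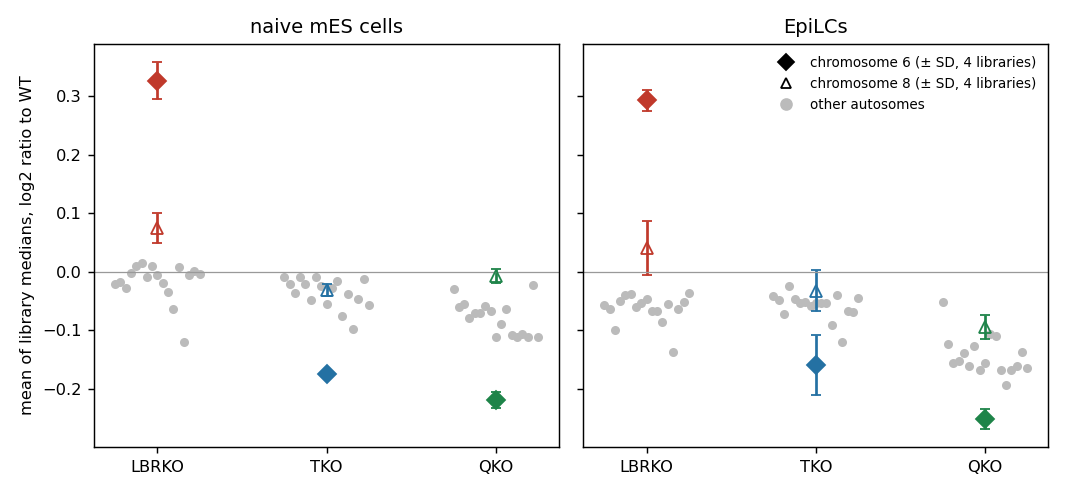
Mean over libraries of the median log2 ratio to WT for each autosome, by mutant and stage, with chromosome 6 marked. Chromosome 6 is the highest point in LBRKO cells (0.33 in mES cells, 0.29 in EpiLCs) and the lowest in TKO (-0.18, -0.16) and QKO cells (-0.22, -0.25).

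The share of all gene counts that fell on the members followed the same order. It was 5.0002 to 5.14% in WT, 6.34 to 6.45% in LBRKO, 4.56 to 4.596% in TKO and 4.44 to 4.47% in QKO mES cells. In EpiLCs the shares were 4.74 to 4.83%, 6.01 to 6.104%, 4.196 to 4.45% and 4.16 to 4.23%. A second readout used no gene: the counts on transposable element (TE) copies that lie outside genes, summed over chromosome 6 and set against the median autosome. Of 108836 such copies on chromosome 6, 35819 had counts, with 13613 to 45784 counts per library. LBRKO libraries stood at 0.28 to 0.37 in mES cells and 0.30 to 0.37 in EpiLCs on the log2 scale, ranking 1 or 2 of 19, above WT (-0.12 to 0.077 and -0.030 to 0.033). TKO and QKO EpiLCs lay below WT at -0.17 to -0.14 and -0.20 to -0.11. In naive cells, TKO libraries at -0.13 to -0.10 and QKO libraries at -0.064 to 0.019 overlapped the WT range. The TE readout depended on its scaling. Chromosome 17 held 30.9 to 68.5% of these TE counts over all 19 autosomes. The second scaling set chromosome 6 against the sum of TE counts on the autosomes other than 6 and 8. It then stood above 0, at 0.015 to 0.24 in TKO mES cells, 0.32 to 0.53 in QKO mES cells and 0.26 to 0.72 in QKO EpiLCs. LBRKO libraries at 0.033 to 0.37 and 0.023 to 0.61 overlapped WT (-0.58 to 0.27 and -0.31 to 0.23).

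Most members lay on the same side of WT. Fitted log2 fold changes of the members had a median of 0.36 (quartiles 0.16 and 0.54) in LBRKO mES cells and 0.34 (quartiles 0.14 and 0.54) in LBRKO EpiLCs, and 81.05% and 84.6% of them were above 0. Medians over the other autosomes were -0.011 and -0.046, with interquartile ranges of 0.37 and 0.37 that resembled those of the members (0.38 and 0.40). In TKO cells the medians were -0.18 (quartiles -0.36 and 0.017) in mES cells and -0.16 (quartiles -0.31 and 0.010) in EpiLCs, against -0.027 and -0.045 on the other autosomes. In QKO cells they were -0.22 (quartiles -0.50 and 0.12) and -0.26 (quartiles -0.63 and 0.18), against -0.079 and -0.14. Members below 0 made up 73.1% and 74.3% in TKO and 68.6% and 66.5% in QKO cells, mES cells before EpiLCs. On the other autosomes the same shares were 54.9% and 58.6% in TKO and 58.7% and 60.9% in QKO cells, so much of the QKO majority lay on all autosomes. The QKO members were the most spread, with interquartile ranges of 0.62 in mES cells and 0.81 in EpiLCs, as were the other autosomes in QKO cells (0.53 and 0.71).

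**Figure D3:**
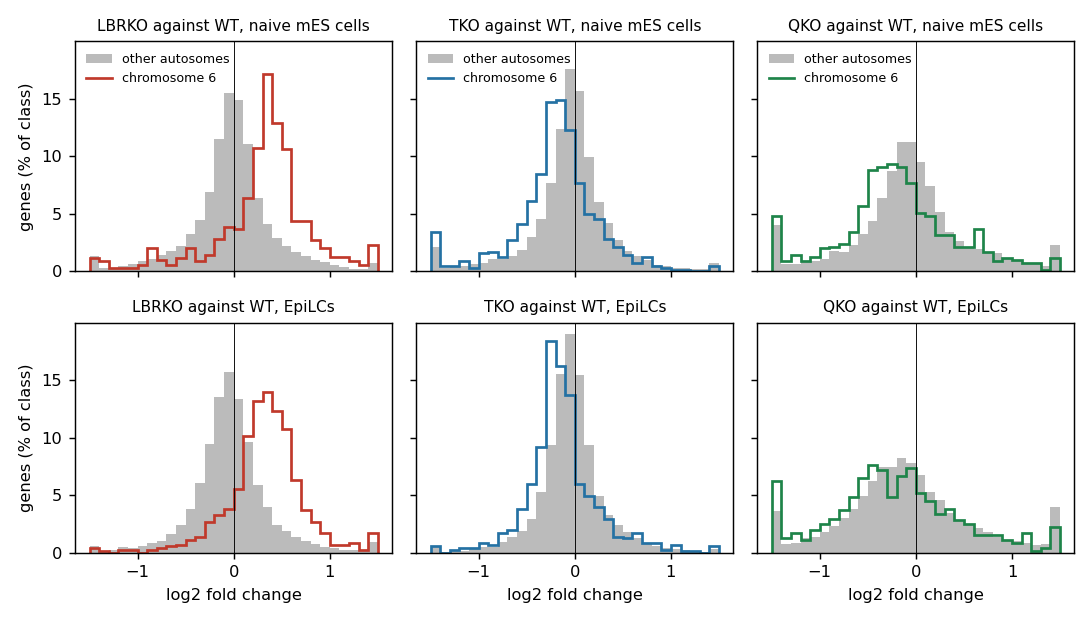
Distribution of fitted log2 fold changes against WT over the 707 chromosome 6 genes and over the genes of the other autosomes, for each mutant and stage, as a share of genes per bar; values beyond 1.5 in size are counted in the end bars. The whole LBRKO distribution is moved to the right (median 0.36 in mES cells), and the QKO distributions are broad (interquartile ranges 0.62 and 0.81).

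Genes at all levels took part in the LBRKO shift. Split by mean level into 3 classes of equal size, members at low, middle and high level had medians of 0.38, 0.37 and 0.35 in LBRKO mES cells and 0.34, 0.34 and 0.35 in LBRKO EpiLCs. In QKO cells the classes differed more, with medians of 0.052, -0.30 and -0.28 in mES cells and 0.017, -0.24 and -0.36 in EpiLCs, and the members at low level, 1.02 to 5.53 CPM, lay near 0 or above. TKO cells showed -0.13, -0.19 and -0.18 in mES cells and -0.10, -0.18 and -0.16 in EpiLCs. The 583 protein-coding members had medians of 0.36, -0.20 and -0.29 in LBRKO, TKO and QKO mES cells. The 43 long non-coding RNAs had 0.40, -0.067 and 0.27, so in QKO mES cells they lay above WT where the coding genes lay below. In EpiLCs the non-coding medians were 0.58, -0.039 and 0.46. The other 81 members, mostly pseudogenes and unclassified transcripts, had -0.056 in LBRKO mES cells and 0.38 in LBRKO EpiLCs. In TKO and QKO cells they lay above WT, at 0.16 and 0.17 in mES cells and 0.22 and 0.28 in EpiLCs. The coding genes thus had the lowest median of these classes in TKO and QKO cells, and the long non-coding RNAs lay slightly below WT in TKO cells. Classes by level or type were not split out on the other autosomes, so these differences are not shown to be particular to chromosome 6.

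The LBRKO shift was seen along the chromosome. Genes were binned by start in steps of 10 Mb, and the 12 bins with at least 20 genes were used. In LBRKO mES cells the bin means over 4 libraries were above 0 in all 12, from 0.14 ± 0.063 in bin 1 to 0.40 ± 0.046 in bin 10 (SD, n = 4), and in LBRKO EpiLCs from 0.15 ± 0.11 in bin 1 to 0.36 ± 0.060 in bin 9. Every LBRKO library was above 0 in each of these bins. Bin 1, at the centromere end, was the lowest at both stages.

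In TKO cells all 12 bins lay below 0, from -0.22 ± 0.031 in bin 9 to -0.14 ± 0.032 in bin 8 in mES cells and from -0.26 ± 0.090 in bin 10 to -0.035 ± 0.054 in bin 1 in EpiLCs. In bin 1 of the TKO EpiLCs the libraries, at -0.094 to 0.023, lay within the WT range (-0.14 to 0.050). QKO cells were also below 0 in all 12, from -0.32 ± 0.020 in bin 13 to -0.086 ± 0.053 in bin 15 in mES cells and from -0.44 ± 0.039 in bin 10 to -0.14 ± 0.048 in bin 14 in EpiLCs. The highest of these QKO bins lay near the fitted medians of the other autosomes, -0.079 in QKO mES cells and -0.14 in QKO EpiLCs. The same held for bin 1 of the TKO EpiLCs, beside -0.045 on the other autosomes. On the centromere side (286 genes) and the telomere side (421 genes) of the middle of the chromosome, the group means were 0.30 and 0.35 in LBRKO mES cells, -0.14 and -0.19 in TKO mES cells and -0.17 and -0.25 in QKO mES cells. Of the bins under 20 genes, bin 2 of QKO mES cells at -0.0090 ± 0.10 and bin 7 of TKO mES cells at -0.023 ± 0.11 had 2 of 4 libraries above 0.

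**Figure D4:**
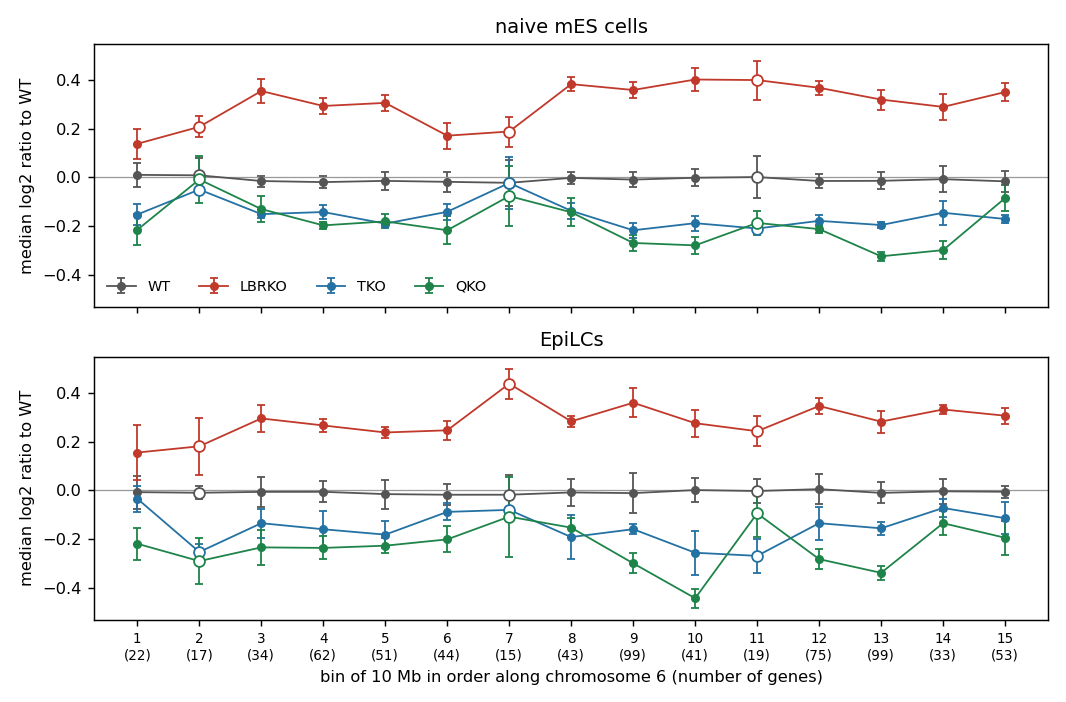
Median log2 ratio to WT of the genes in each 10 Mb bin along chromosome 6, from the centromere end (bin 1), as the mean of 4 libraries with SD for each mutant and stage; the number of genes is given below each bin and bins under 20 genes are open circles. LBRKO cells lie above 0 in all 12 filled bins and TKO and QKO cells below 0 in all 12. The other autosomes are not drawn, and the highest QKO bins lie near their median.

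Gene by gene, 430 of 707 members were higher and 46 lower in LBRKO mES cells at an adjusted p under 0.05 (edgeR quasi-likelihood test, Benjamini-Hochberg over 23399 genes, no minimum fold). That is 60.8% and 6.51% of the members, beside 12.7% and 11.2% of all genes tested. Only 44 of the higher members passed 2-fold. In LBRKO EpiLCs 401 were higher and 28 lower, beside 11.0% and 14.2% of all genes. Of the members higher at either stage, 316 were higher at both. That is 73.5% of those higher in mES cells, beside 56.7% of all members that were higher in EpiLCs. It is 78.8% of those higher in EpiLCs, beside 60.8% of all members that were higher in mES cells. The 2 stages have their own WT libraries but come from the same cell lines, so they are not independent. The overlap was not counted over all genes. In 317 members every LBRKO mES cell library was above every WT library, and in 23 all were below, beside 7.48% and 6.51% of all genes tested.

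In TKO mES cells 42 members were higher and 262 lower, 5.94% and 37.1%, beside 8.09% and 13.2% of all genes tested. In TKO EpiLCs 35 were higher and 201 lower, beside 4.64% and 10%. Of the lower members, 130 were lower at both stages. That is 49.6% of those lower in mES cells, beside 28.4% of all members that were lower in EpiLCs. It is 64.7% of those lower in EpiLCs, beside 37.1% of all members that were lower in mES cells. On the other autosomes at the same minimum of 1 CPM, 9.68% of genes were higher and 17.1% lower in mES cells, and 5.59% and 13.6% in EpiLCs. The share of lower members was over that of all genes and of these. The share of higher members was under that of the other autosomes in mES cells and near it in EpiLCs.

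In QKO mES cells 101 members were higher and 343 lower, 14.3% and 48.5%, beside 21.0% and 23.5% of all genes. In QKO EpiLCs 125 were higher and 348 lower, beside 24.3% and 30.5%. Against genes of the other autosomes at the same minimum of 1 CPM, of which 32.6% and 42.3% were lower, the excess of lower members was smaller (48.5% and 49.2%). 265 members were lower at both stages and 37 went in opposite directions. The former are 77.3% of those lower in mES cells, beside 49.2% of all members that were lower in EpiLCs. They are 76.1% of those lower in EpiLCs, beside 48.5% of all members that were lower in mES cells.

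QKO cells differ from TKO cells in *Lbr* and in being a single clone derived from them, and these cannot be told apart. Between QKO and TKO cells the chromosome 6 values lay close to those of the other autosomes. The QKO libraries had chromosome 6 medians of -0.073 to -0.041 against TKO in mES cells and -0.14 to -0.12 in EpiLCs. Fitted medians were -0.057 and -0.13, beside -0.047 and -0.11 on the other autosomes. In mES cells 70 members were higher and 125 lower, 9.901% and 17.7%, beside 9.16% and 11.3% of all genes and 9.76% and 17.3% of genes on other autosomes. In EpiLCs 127 were higher and 249 lower, 17.96% and 35.2%, beside 18.9% and 23.0% of all genes and 19.4% and 33.3% on other autosomes. Chromosome 6 was thus higher in LBRKO cells set against WT and not higher in QKO cells set against TKO, and the difference between these comparisons was not tested.

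*Hk2* (ENSMUSG00000000628.11, chromosome 6, 82702006 to 82751435), hexokinase at the entry of glycolysis, passed the test in all 6 comparisons with WT and shows the pattern in a single gene. It stood at 557 to 686 CPM (median 624) in the 8 WT mES cell libraries, 818, 762, 738 and 765 CPM in LBRKO, 549, 576, 539 and 549.9 CPM in TKO cells and 431, 459, 438 and 425 CPM in QKO cells of that stage. The EpiLC values were 270.3 to 310.3 CPM (median 299.8) in WT, 438, 411, 382 and 408 CPM in LBRKO, 262, 254, 279 and 247 CPM in TKO and 236, 236, 245 and 236 CPM in QKO cells. At both stages all LBRKO libraries lay above and all QKO libraries below the WT range, and the TKO range overlapped that of WT. The log2 fold changes were 0.29 ± 0.051, -0.19 ± 0.052 and -0.53 ± 0.053 in LBRKO, TKO and QKO mES cells (SE, edgeR adjusted p = 2.88e-05, 0.00586 and 5.50e-11) and 0.48 ± 0.051, -0.18 ± 0.052 and -0.31 ± 0.053 in the EpiLCs. The TKO changes were small and lost their call against 1 of the WT sets, replicates 5 to 8 in mES cells (edgeR adjusted p = 0.128) and replicates 1 to 4 in EpiLCs (edgeR adjusted p = 0.101). In EpiLCs the call was also lost without TKO replicate 2 or 4 (edgeR adjusted p = 0.0737 and 0.0896). The gene overlaps *Gm17034*, and whether counting used strand was not given, a limit shared by the 417 of 707 members whose spans overlap another gene.

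*Cdkn1b*, the cyclin-dependent kinase inhibitor p27, *Suclg1*, a subunit of succinyl-CoA ligase of the citric acid cycle, *Bpgm*, bisphosphoglycerate mutase, and *Xpc*, which recognises damaged DNA in nucleotide excision repair, passed the test in the same 6 directions. Their log2 changes in LBRKO, TKO and QKO mES cells were 0.34, -0.24 and -0.46 for *Cdkn1b*, and 0.40, -0.56 and -0.65 for *Bpgm*. Changes of *Suclg1* in LBRKO mES cells and of *Bpgm* in TKO EpiLCs were near the threshold (edgeR adjusted p = 0.0451 and 0.0487), and each lost its call against WT replicates 1 to 4 (edgeR adjusted p = 0.231 and 0.196) and when any 1 of 9 libraries for either gene was left out. *Cdkn1b* and *Xpc* in TKO mES cells lost theirs against WT replicates 5 to 8 (edgeR adjusted p = 0.102 and 0.131), and *Xpc* also without TKO replicate 4 (edgeR adjusted p = 0.0919).

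The gene lists that follow are read against the shares of all members that were higher and lower, 60.8% and 6.51% in LBRKO, 5.94% and 37.1% in TKO and 14.3% and 48.5% in QKO mES cells and 56.7% and 3.96%, 4.95% and 28.4% and 17.7% and 49.2% in the EpiLCs. Nothing particular to a list was tested, and the lists of up to 7 measured genes are too short for their shares to be read. Of the 17 metabolism genes on the chromosome, 10 rose and 2 fell in LBRKO mES cells and 11 rose and 2 fell in LBRKO EpiLCs, with medians of 0.28 and 0.29 beside 0.36 and 0.34 over all members. In TKO cells 1 rose and 9 fell in mES cells and 0 rose and 10 fell in EpiLCs (medians -0.20 and -0.19), and in QKO cells 2 rose and 14 fell and 2 rose and 13 fell (medians -0.44 and -0.47). *Gapdh*, the most abundant member, fell in TKO and QKO mES cells from 5313 ± 514 CPM to 4514 ± 197 CPM and 4161 ± 54.7 CPM (SD, n = 8 and 4), log2 changes of -0.24 ± 0.084 and -0.35 ± 0.085. It rose by 0.27 ± 0.083 in LBRKO EpiLCs. The TKO call was lost against WT replicates 1 to 4 and the LBRKO call against replicates 5 to 8 (edgeR adjusted p = 0.203 and 0.19), the former also when any 1 of 7 libraries was left out and the latter without LBRKO replicate 4. The 10 members with the highest mean level were *Gapdh*, *Chd4*, *Slc2a3*, *Fkbp4*, *Asns*, *Cct7*, *Gars1*, *Wnk1*, *Bcat1* and *Mcm2*. *Ldhb*, the lactate dehydrogenase subunit that favours lactate oxidation, went against the chromosome in LBRKO mES cells. Its 8 WT mES cell libraries held 409.6 to 549 CPM (median 477), LBRKO 333, 336, 394 and 432 CPM, TKO 337, 325, 331 and 325 CPM and QKO 122, 107, 116 and 111 CPM. The QKO libraries lay far below all others, at -2.07 ± 0.091, adjusted p = 6.71e-22 (SE, edgeR), and the LBRKO change was -0.35 ± 0.083, adjusted p = 0.00122. In LBRKO EpiLCs *Ldhb* rose instead, by 0.85 ± 0.081, adjusted p = 4.52e-11. *Slc2a3*, a glucose transporter beside *Nanog*, fell in QKO EpiLCs from 245 ± 82.4 CPM to 84.05 ± 10.01 CPM, and its change was -1.93 against WT replicates 1 to 4 and -1.02 against replicates 5 to 8.

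Among 25 genes of chromatin and DNA repair, 17 rose and 0 fell in LBRKO mES cells and 16 rose and 0 fell in LBRKO EpiLCs. The shares that rose, 68% and 64%, lay near those of all members (60.8% and 56.7%). In TKO cells 1 rose and 6 fell and 0 rose and 4 fell, and in QKO cells 3 rose and 13 fell and 3 rose and 15 fell, mES cells before EpiLCs. The medians were 0.31 and 0.26 in LBRKO, -0.075 and -0.12 in TKO and -0.19 and -0.30 in QKO cells. *Ncapd2*, a subunit of condensin I, rose in LBRKO mES cells from 471 ± 22.3 CPM to 620.5 ± 44.4 CPM and fell to 394 ± 5.51 CPM in the TKO and 350.3 ± 6.21 CPM in the QKO libraries, log2 changes of 0.40 ± 0.052, -0.26 ± 0.054 and -0.43 ± 0.054. *Mcm2*, a subunit of the replicative helicase, rose by 0.30 ± 0.044 and 0.40 ± 0.043 in LBRKO mES cells and EpiLCs. *Rad18*, a ubiquitin ligase of replication repair, rose by 0.41 ± 0.056 in LBRKO and fell by 0.35 ± 0.059 in QKO mES cells. *Chd4*, the remodeller of the NuRD complex, had 967 ± 32.8 CPM in WT, 1087 ± 111 CPM in LBRKO and 787 ± 31.7 CPM in QKO EpiLCs, log2 changes of 0.17 ± 0.063 (edgeR adjusted p = 0.0447) and -0.30 ± 0.064. The LBRKO call was lost against WT replicates 5 to 8 (edgeR adjusted p = 0.162) and when any 1 of 8 libraries was left out.

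Of 20 genes of signalling and the cell cycle at this level, 15 rose and 1 fell in LBRKO mES cells and 8 rose and 3 fell in LBRKO EpiLCs, with medians of 0.49 and 0.19. The shares that rose were 75% and 40%, beside 60.8% and 56.7% of all members. In TKO cells 1 rose and 11 fell in mES cells and 1 rose and 6 fell in EpiLCs, and in QKO cells 2 rose and 13 fell and 4 rose and 13 fell. *Ccnd2* (ENSMUSG00000000184.13, chromosome 6, 127102125 to 127129156), cyclin D2 of the G1 phase, depended on the WT set. WT mES cells held 0.543 to 4.602 CPM (median 2.13), with means of 0.838 CPM in replicates 1 to 4 and 3.95 CPM in replicates 5 to 8, against 4.79, 4.297, 5.32 and 5.73 CPM in LBRKO, 0.33, 0.285, 0.206 and 0.256 CPM in TKO cells and 0.065, 0.0766, 0.393 and 0.206 CPM in QKO cells of that stage. The LBRKO change of 1.02 ± 0.28, adjusted p = 0.00574 (SE, edgeR) was 2.57 against WT replicates 1 to 4 and 0.35 against replicates 5 to 8, the latter with an edgeR adjusted p of 0.147. The lower values in TKO and QKO mES cells held against each set, at -1.64 and -3.87 in TKO and -2.21 and -4.44 in QKO cells.

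*Emp1* (ENSMUSG00000030208.16, chromosome 6, 135339543 to 135360171), an epithelial membrane protein, went against the chromosome in TKO cells and in QKO EpiLCs. In mES cells it stood at 44.02 to 59.9 CPM (median 52.8) in WT, 130.1, 122, 161 and 148 CPM in LBRKO, 72.7, 72.6, 73.6 and 68.4 CPM in TKO and 57.7, 54.1, 58.8 and 58.1 CPM in QKO cells, the last within the WT range. In EpiLCs it stood at 0.763 to 1.497 CPM (median 1.18) in WT, 3.59, 3.88, 3.99 and 4.55 CPM in LBRKO, 1.46, 2.56, 3.13 and 2.97 CPM in TKO and 12.8, 12.7, 12.3 and 15.2 CPM in QKO cells. All LBRKO and QKO libraries of that stage lay above WT, the TKO range met that of WT, and the QKO libraries held the highest values. The log2 changes were 1.798 ± 0.13, 1.15 ± 0.15 and 3.52 ± 0.12 in LBRKO, TKO and QKO EpiLCs (SE, edgeR adjusted p = 6.24e-14, 3.87e-07 and 2.41e-25).

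Of 7 genes imprinted or beside an imprinted gene, 3 rose and 0 fell in LBRKO mES cells, 0 rose and 5 fell in TKO and 1 rose and 6 fell in QKO mES cells, with medians of 0.30, -0.61 and -0.91. In EpiLCs 3 rose and 1 fell in LBRKO, 0 rose and 4 fell in TKO and 0 rose and 6 fell in QKO cells. The paraoxonase genes *Pon2* (ENSMUSG00000032667.18, chromosome 6, 5264147 to 5298455) and *Pon3* lie here. *Pon2* stood at 4.88 to 9.71 CPM (median 6.97) in WT mES cells, 12.5, 10.5, 14.4 and 14.2 CPM in LBRKO and 1.45, 1.18, 2.27 and 1.83 CPM in TKO mES cells, log2 changes of 0.84 ± 0.17 and -2.09 ± 0.20 (edgeR adjusted p = 1.46e-04 and 7.79e-11). All LBRKO libraries lay above and all TKO libraries below the WT range. The LBRKO change was 1.198 against WT replicates 1 to 4 and 0.55 against replicates 5 to 8, and the TKO change -1.73 against WT replicates 1 to 4 and -2.37 against replicates 5 to 8. *Pon3* changed the same way, by 0.94 ± 0.18, -2.22 ± 0.23 and -2.68 ± 0.25 in LBRKO, TKO and QKO mES cells, from a WT mean of 2.897 ± 0.286 CPM.

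The smaller lists held few measured genes. Of 6 neighbours of *Nanog*, 3 rose and 0 fell in LBRKO mES cells and 3 rose and 0 fell in LBRKO EpiLCs, while 0 rose and 4 fell in QKO mES cells and 0 rose and 3 fell in QKO EpiLCs. TKO cells showed 1 lower neighbour in mES cells and 0 in EpiLCs, where medians were -0.035 and -0.057 and no member reached an adjusted p of 0.05 in the edgeR fit in EpiLCs. In and beside the *Hoxa* cluster 3 of 16 names reached 1 CPM, and 1 rose and 0 fell in LBRKO mES cells, 3 rose and 0 fell in LBRKO EpiLCs, 0 rose and 3 fell in TKO mES cells and 0 rose and 2 fell in QKO mES cells. In TKO EpiLCs 1 rose and 0 fell and in QKO EpiLCs 0 rose and 2 fell. Of 236 names in the immune receptor clusters 6 were measured, and 3 rose and 0 fell in LBRKO, 1 rose and 3 fell in TKO and 2 rose and 3 fell in QKO mES cells. In the EpiLCs 2 rose and 0 fell, 0 rose and 1 fell and 1 rose and 2 fell in the same order. The ribosomal protein genes *Rpl32* and *Rps4l* gave 1 rose and 0 fell in LBRKO, 0 rose and 1 fell in TKO and 0 rose and 2 fell in QKO mES cells, and 2 rose and 0 fell, 0 rose and 0 fell and 0 rose and 2 fell in the EpiLCs.

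Beyond the shared shift, single members of LBRKO cells changed by much more than the chromosome. In LBRKO mES cells the 5 highest by the rule for named genes were *Tlx2*, a homeobox factor, *Gpnmb*, a glycoprotein of lysosomes, *Epha1*, an ephrin receptor, *Zyx*, the focal adhesion protein zyxin, and *Foxi3*, a forkhead factor. *Tlx2* stood at 1.06 to 4.76 CPM (median 2.63) in WT and 11.7, 14.5, 12.8 and 17.7 CPM in LBRKO mES cells, 2.301 ± 0.29, adjusted p = 4.30e-08 (SE, edgeR), and its change was 3.07 against WT replicates 1 to 4 and 1.82 against replicates 5 to 8. *Zyx* stood at 7.403 to 9.75 CPM (median 8.81) in WT and 26.7, 29.98, 33.4 and 34.5 CPM in LBRKO cells, 1.85 ± 0.078, adjusted p = 1.11e-21. The spans of *Epha1* and *Zyx* overlap, so their counts are not independent. *Gpnmb*, *Epha1* and *Foxi3* rose by 2.198, 2.11 and 1.71. The change of *Epha1* was 2.803 against WT replicates 1 to 4 and 1.71 against replicates 5 to 8.

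Against the direction of the chromosome, *Ppm1k*, *Ccdc136*, *Vax2os* and *Abcg2* were the named genes that fell in LBRKO mES cells. *Ppm1k* (ENSMUSG00000037826.6, chromosome 6, 57483487 to 57512453), the mitochondrial phosphatase that activates the breakdown of branched-chain amino acids, stood at 5.22 to 10.2 CPM (median 7.47) in WT and 1.98, 1.999, 1.89 and 1.55 CPM in LBRKO cells, -2.01 ± 0.15, adjusted p = 1.33e-13. In LBRKO EpiLCs it was 3.27, 4.03, 3.84 and 4.13 CPM against 7.08 to 11.8 CPM (median 10.4) in WT, -1.39 ± 0.14, adjusted p = 4.33e-10. LBRKO libraries lay below all WT libraries at both stages. *Abcg2*, a drug efflux transporter of stem cells, fell by 1.26 ± 0.075 from 26.9 ± 1.84 CPM to 11.3 ± 0.798 CPM, *Ccdc136* fell by 1.74 ± 0.088, and *Vax2os*, antisense to *Vax2* and thus uncertain, fell by 1.39 ± 0.19.

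In LBRKO EpiLCs *Smyd1*, a muscle histone methyltransferase, *Halr1*, a non-coding RNA beside the *Hoxa* cluster, *Tmem40*, *Scrn1* and *Ndnf*, a secreted neurotrophic factor, were the highest named genes. *Smyd1* stood at 1.299 to 2.34 CPM (median 1.51) in WT and 9.81, 8.296, 5.91 and 5.85 CPM in LBRKO EpiLCs, 2.17 ± 0.14, adjusted p = 2.26e-15 (SE, edgeR), and its span overlaps *Krcc1*. *Halr1* rose by 2.12 ± 0.28, *Tmem40* by 1.298 ± 0.13, *Scrn1* by 1.25 ± 0.084 and *Ndnf* by 1.25 ± 0.19. *Trh*, *Ccnd2* and *Lrrn1* fell beside *Ppm1k*, with *Trh* at 30.6 to 49.96 CPM (median 37.7) in WT and 12.9, 16.1, 11.6 and 14.3 CPM in LBRKO EpiLCs, -1.47 ± 0.32, adjusted p = 5.17e-04. The changes of *Ccnd2* and *Lrrn1* were -1.12 ± 0.27 and -1.07 ± 0.24. *Asns*, asparagine synthetase, rose from 1107 ± 66.9 CPM to 1598 ± 59.5 CPM in LBRKO mES cells (0.53 ± 0.066) and fell from 499 ± 50.7 CPM to 199.5 ± 15.3 CPM in QKO EpiLCs (-1.32 ± 0.072).

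In TKO mES cells *Trh*, *Pon2*, *Foxp1*, *Scnn1a* and *Slc23a4* were the 5 lowest named genes. *Trh* (ENSMUSG00000005892.5, chromosome 6, 92219042 to 92221631), the precursor of thyrotropin-releasing hormone with the CG-rich promoter above, stood at 53.6 to 304 CPM (median 156) in WT, 26.9, 30.2, 24.4 and 26.7 CPM in TKO cells and 21.4, 18.9, 16.5 and 17.8 CPM in QKO cells of that stage. WT replicates 1 to 4 had a mean of 62.9 CPM and replicates 5 to 8 of 269 CPM. Its change of -2.62 ± 0.34, adjusted p = 7.07e-08 in TKO cells (SE, edgeR) was -1.22 against WT replicates 1 to 4 and -3.31 against replicates 5 to 8, and that of -3.15 ± 0.35, adjusted p = 6.97e-10 in QKO cells was -1.75 against WT replicates 1 to 4 and -3.85 against replicates 5 to 8.

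*Foxp1*, a forkhead factor, *Scnn1a*, a subunit of the epithelial sodium channel, and *Slc23a4*, a transporter, were low in TKO mES cells and had lower means in QKO mES cells. *Scnn1a* stood at 3.89 to 6.67 CPM (median 5.31) in WT, 1.45, 1.53, 1.296 and 1.57 CPM in TKO cells and 0.227, 0.191, 0.196 and 0.0686 CPM in QKO cells of that stage, with changes of -1.86 ± 0.23, adjusted p = 2.68e-08 and -4.93 ± 0.31, adjusted p = 5.97e-17. Log2 changes of *Foxp1* were -1.89 ± 0.21 and -3.46 ± 0.27, and those of *Slc23a4* -1.77 ± 0.24 and -3.04 ± 0.27 in the same order. In TKO EpiLCs *Ggct*, an enzyme of glutathione breakdown, was the named gene that rose, from 4.72 to 8.68 CPM (median 6.03) in WT to 23.1, 17.9, 18.996 and 16.4 CPM in TKO, 1.59 ± 0.14, adjusted p = 2.28e-11. *Frmd4b*, *Pon2* and *Gng12*, a G protein gamma subunit, fell, with log2 changes of -1.28 ± 0.12, -1.27 ± 0.19 and -1.16 ± 0.11.

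In QKO mES cells *Aass*, which begins lysine breakdown, *Clec4a1*, a lectin receptor, *Tes*, an adhesion protein, and *Smyd1* were among the 5 highest named genes. *Aass* stood at 2.21 to 5.24 CPM (median 3.16) in WT and 17.02, 15.8, 16.3 and 16.7 CPM in QKO cells, 2.33 ± 0.19, adjusted p = 1.53e-13, and *Tes* at 16.9 to 22.4 CPM (median 19.2) and 60.7, 61.8, 66.3 and 61.2 CPM, 1.69 ± 0.077, adjusted p = 1.82e-21 (SE, edgeR). No QKO library of these overlapped WT. *Clec4a1* and *Smyd1* rose by 2.32 ± 0.20 and 1.18 ± 0.14. *Ccdc136*, the fifth lowest, fell by 2.81 ± 0.10, from 21.6 ± 1.44 CPM to 3.09 ± 0.512 CPM.

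In QKO EpiLCs *Emp1* was followed by *Arhgdib*, a regulator of small GTPases, *Rtkn*, an effector of small GTPases, *Scrn1* and *Slc4a5*, a bicarbonate transporter. *Arhgdib* stood at 1.17 to 2.12 CPM (median 1.62) in WT and 10.5, 9.84, 9.95 and 12.5 CPM in QKO EpiLCs, 2.72 ± 0.17, adjusted p = 4.07e-17, and *Slc4a5* at 19.5 to 22.3 CPM (median 21.03) and 63.9, 62.7, 68.7 and 67.7 CPM, 1.66 ± 0.061, adjusted p = 1.17e-24. *Rtkn* and *Scrn1* rose by 1.92 ± 0.13 and 1.77 ± 0.084. *Antxr1*, a collagen-binding receptor, *Gpr27*, an orphan receptor, *Eif4e3*, a cap-binding protein, *Mdfic* and *Fam131b* were the lowest, with log2 changes of -2.44 ± 0.20, -2.27 ± 0.18, -2.24 ± 0.26, -2.19 ± 0.11 and -1.98 ± 0.21. Of these, *Arhgdib* overlaps *Pde6h*, *Rtkn* overlaps *Wdr54*, *Scrn1* overlaps *Wipf3* and *Fam131b* overlaps *Clcn1*.

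**Figure D5:**
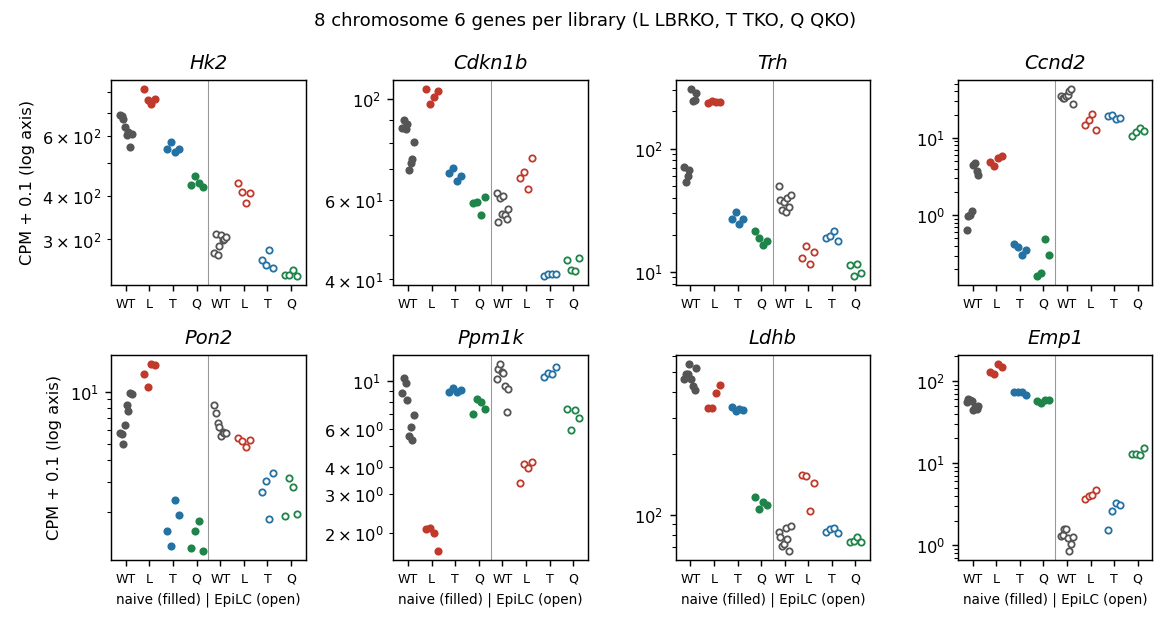
CPM of 8 chromosome 6 genes in every library (points, log axis after adding 0.1 CPM) for WT, LBRKO (L), TKO (T) and QKO (Q) cells, naive mES cells filled and EpiLCs open. *Hk2* and *Cdkn1b* move with the chromosome, *Trh* and *Ccnd2* show wide WT ranges in mES cells, and *Emp1* reaches 12.3 to 15.2 CPM in QKO EpiLCs against 0.763 to 1.497 in WT.

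Between QKO and TKO mES cells *Aass*, *Clec4a1*, *Gpnmb* and *Stk31*, a germ cell kinase, were the named genes higher in QKO. *Aass* had 3.83, 2.78, 3.21 and 3.14 CPM in TKO against 17.02, 15.8, 16.3 and 16.7 CPM in QKO cells, 2.34 ± 0.24, adjusted p = 4.68e-10 (SE, edgeR). *Clec4a1*, *Gpnmb* and *Stk31* were higher by 1.21 ± 0.24, 1.03 ± 0.26 and 1.03 ± 0.12. *Gabarapl1*, of the autophagy membrane, *Vwf*, von Willebrand factor, *Ccdc136*, *Ldhb* and *Tuba3a*, a tubulin, were the lowest, with *Gabarapl1* at 16.9, 18.8, 18.6 and 16.3 CPM in TKO and 5.03, 3.64, 4.95 and 4.94 CPM in QKO cells. Their log2 changes were -1.93 ± 0.16, -1.65 ± 0.19, -1.65 ± 0.11, -1.53 ± 0.10 and -1.36 ± 0.18. *Tuba3a* has close copies among the tubulin genes, so its reads are uncertain.

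In EpiLCs *Arhgdib*, *Emp1*, *Rtkn*, *Aass* and *Scrn1* were higher in QKO than in TKO cells by 2.53 ± 0.22, 2.37 ± 0.14, 2.11 ± 0.16, 1.89 ± 0.24 and 1.73 ± 0.10. *Antxr1*, *Bhlhe40*, a circadian and stress-induced repressor, *Mdfic*, *Gpr27* and *Tspan9*, a tetraspanin, were lower. *Bhlhe40* had 35.3, 36.1, 35.5 and 30.5 CPM in TKO and 8.71, 9.01, 8.77 and 9.66 CPM in QKO EpiLCs, -1.92 ± 0.15, adjusted p = 9.94e-14, and the log2 changes of the other 4 were -2.11 ± 0.22, -1.905 ± 0.12, -1.71 ± 0.19 and -1.68 ± 0.17. No TKO and QKO library of *Bhlhe40* overlapped.

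Whether a member changed differently at the 2 stages was tested as an interaction in the same fit. In LBRKO cells 153 of 707 members passed (21.6%), beside 15.5% of all genes tested and 21.2% of genes on other autosomes at the same minimum of 1 CPM. In TKO cells 85 passed (12.02%), beside 8.44% and 11.7%, and in QKO cells 256 (36.2%), beside 29.8% and 39.01%. The members thus lay near or below the other autosomes at this level. The members that passed were split between directions, 75 with a larger and 78 with a smaller value in LBRKO EpiLCs, 55 and 30 in TKO and 113 and 143 in QKO EpiLCs. *Ldhb* in LBRKO cells, which fell in mES cells and rose in EpiLCs, was among them. A member that did not pass is not shown to have changed alike at both stages.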

How the data were processed

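RNA was measured as counts per gene in 40 libraries of 8 groups (4 genotypes, 2 stages). The authors used cutadapt 2.5 for trimming, STAR 2.7.10a for alignment to GRCm39, SAMtools 1.10, and featureCounts 1.6.4 for counting over GENCODE M30 genes and over TE copies. Only reads with a single alignment entered these counts. The deposited values are raw counts, with no normalisation. Whether counting used strand is not given in the sources used here. Reads with a single alignment under-represent genes with near-identical copies. A further deposited table of TE families was not used here.

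Symbols and spans came from GENCODE M39, which held 56017 of 56748 identifiers. Counts were scaled by TMM and tested with edgeR 4.0.16 (R 4.3.3, quasi-likelihood test, filterByExpr on the 8 groups, 1 coefficient per group, all 40 libraries fitted jointly), with Benjamini-Hochberg adjustment over 23399 genes and calls at an adjusted p under 0.05. Log2 fold changes carry their SE, and CPM and library medians the SD over libraries. Chromosome medians used log2((CPM + 0.5)/(mean CPM of the reference + 0.5)) and were given no test. The pseudocount understates the change of members at low level. P-values measure the spread between wells. The script was tested on simulated counts. Libraries held 22.6 to 48.9 M counts on genes.

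The members, gene lists and comparisons were chosen with earlier results of these data known. Named genes were, per comparison, the 5 highest and 5 lowest fold changes among members that passed the test, changed over 2-fold, had groups that did not overlap, had at least 5 CPM where they were higher and carried a gene symbol, together with members of the lists and the 10 members with the highest mean. From the lists and these 10, only changes that passed the test are given. Some genes that these rules name are not reported here. Alternatives were DESeq2 1.42.0, RLE factors, TMM from other autosomes, no filter, a pseudocount of 2 CPM, a minimum of 5 CPM, WT replicates 1 to 4 or 5 to 8 alone, the replicate number as a block, and leaving out each library.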

Additional observations from a re-analysis of the deposited data

Results flagged for a closer look

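Of 221 sets of 4 or 8 libraries examined with Dixon's criterion, 17 had a library that stood apart, and chance gives about 1 in 20. For the chromosome 6 median, these were WT EpiLC replicate 5 at 0.081 and TKO EpiLC replicate 1 at -0.24. In both, the other autosomes moved the same way (0.093 and -0.11). Among the named genes, single libraries stood apart for *Bhlhe40* at 30.5 CPM in TKO EpiLC replicate 4, *Emp1* at 15.2 CPM in QKO EpiLC replicate 4, *Gabarapl1* at 3.64 CPM in QKO mES cell replicate 2, *Gapdh* at 6455 CPM in WT mES cell replicate 8, *Gpnmb* at 5.91 CPM in WT mES cell replicate 7, *Hk2* at 245 CPM in QKO EpiLC replicate 3, *Ncapd2* at 554 CPM in LBRKO mES cell replicate 4, *Ncapd2* at 616 CPM in WT EpiLC replicate 5, *Pon3* at 5.83 CPM in LBRKO mES cell replicate 3. Others were *Pon3* at 0.785 CPM in TKO mES cell replicate 2, *Slc23a4* at 0.919 CPM in QKO mES cell replicate 2, *Smyd1* at 11.9 CPM in QKO mES cell replicate 2, *Suclg1* at 73.2 CPM in TKO mES cell replicate 4, *Suclg1* at 78.3 CPM in WT mES cell replicate 7 and *Xpc* at 19.4 CPM in TKO EpiLC replicate 2.

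The change against WT differed between the stages for 53 of 86 pairs of a named gene and a mutant (interaction in the edgeR fit at an adjusted p under 0.05 over all genes). Values in parentheses are the log2 change in EpiLCs minus that in mES cells. In LBRKO cells the change was higher in EpiLCs than in mES cells for 8 of them, *Ccdc136* (2.33), *Vax2os* (2.18), *Halr1* (2.099), *Smyd1* (1.38), *Ldhb* (1.203), *Tmem40* (1.12), *Abcg2* (1.07) and *Ppm1k* (0.62). It was lower in EpiLCs for 10, *Gpnmb* (-2.79), *Epha1* (-2.32), *Ccnd2* (-2.13), *Trh* (-1.99), *Foxi3* (-1.64), *Zyx* (-1.297), *Pon2* (-1.16), *Pon3* (-1.16), *Asns* (-0.32) and *Ncapd2* (-0.27). In TKO cells the change was higher in EpiLCs than in mES cells for 9 of them, *Ccnd2* (2.28), *Foxp1* (2.23), *Trh* (1.65), *Scnn1a* (1.56), *Ggct* (0.93), *Pon2* (0.82), *Emp1* (0.70), *Ldhb* (0.65) and *Bpgm* (0.34). It was lower in EpiLCs for 2, *Asns* (-0.75) and *Frmd4b* (-0.62). In QKO cells the change was higher in EpiLCs than in mES cells for 14 of them, *Scnn1a* (3.505), *Slc23a4* (3.42), *Emp1* (3.397), *Foxp1* (2.78), *Ccnd2* (2.22), *Ldhb* (2.02), *Ccdc136* (1.86), *Rtkn* (1.799), *Pon3* (1.78), *Arhgdib* (1.45), *Slc4a5* (1.31), *Trh* (1.29), *Scrn1* (0.89) and *Hk2* (0.22). It was lower in EpiLCs for 10, *Tes* (-2.34), *Fam131b* (-1.93), *Mdfic* (-1.65), *Asns* (-1.29), *Antxr1* (-1.22), *Slc2a3* (-1.19), *Aass* (-0.91), *Xpc* (-0.30), *Ncapd2* (-0.27) and *Chd4* (-0.26). For *Trh*, *Ccnd2* and *Pon2*, WT replicates 1 to 4 and 5 to 8 differed in mES cells, and the part of this in the stage difference was not tested.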

How the results depend on the processing

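Counts of changed members moved by over 1.5 times in 5 cases: lower in LBRKO mES cells 76 with WT replicates 1 to 4 alone and 80 with the replicate number as a block, higher in TKO mES cells 66 and in TKO EpiLCs 60 with WT replicates 5 to 8 alone, and lower in TKO EpiLCs 133 with no filter. The block fit used replicates 1 to 4 of each group, and equal numbers did not pair the libraries (r of deviations -0.19 to 0.28, over 0.1 in 6 of 32 pairs, best with the own number in 14). Medians that moved by more than the SD between libraries were, with a pseudocount of 2 CPM, 0.29 (LBRKO mES cells), -0.14 (TKO mES cells), -0.18 (QKO mES cells), 0.25 (LBRKO EpiLCs), -0.21 (QKO EpiLCs), -0.043 (QKO against TKO mES cells) and -0.11 (QKO against TKO EpiLCs); at 5 CPM or more, -0.18 (TKO mES cells), -0.28 (QKO mES cells), 0.32 (LBRKO EpiLCs), -0.33 (QKO EpiLCs), -0.10 (QKO against TKO mES cells) and -0.18 (QKO against TKO EpiLCs); over every gene with a count, where most hold near 0 CPM, 0.00092 (LBRKO mES cells), -0.010 (TKO mES cells), 0 (QKO mES cells), 0.019 (LBRKO EpiLCs), -0.020 (TKO EpiLCs), -0.0078 (QKO EpiLCs), 0 (QKO against TKO mES cells) and 0 (QKO against TKO EpiLCs); minus the other autosomes, -0.14 (TKO mES cells), -0.14 (QKO mES cells), 0.35 (LBRKO EpiLCs), -0.11 (TKO EpiLCs), -0.11 (QKO EpiLCs), -0.013 (QKO against TKO mES cells) and -0.022 (QKO against TKO EpiLCs); as shares of gene counts, -0.15 (TKO mES cells), -0.19 (QKO mES cells), 0.34 (LBRKO EpiLCs), -0.19 (QKO EpiLCs), -0.043 (QKO against TKO mES cells) and -0.060 (QKO against TKO EpiLCs); with WT replicates 1 to 4, -0.16 (TKO mES cells) and 0.31 (LBRKO EpiLCs). Chosen after seeing the data, TE copies against the median autosome gave -0.11 (TKO mES cells), -0.027 (QKO mES cells), 0.32 (LBRKO EpiLCs), -0.15 (QKO EpiLCs), 0.091 (QKO against TKO mES cells) and 0.0069 (QKO against TKO EpiLCs), and over the sum of TE counts on the autosomes other than 6 and 8, 0.23 (LBRKO mES cells), 0.13 (TKO mES cells), 0.46 (QKO mES cells), 0.22 (LBRKO EpiLCs), -0.10 (TKO EpiLCs), 0.48 (QKO EpiLCs), 0.33 (QKO against TKO mES cells) and 0.58 (QKO against TKO EpiLCs), so the sign turned in naive TKO, in QKO and in QKO against TKO cells, and the cause was not tested. Leaving out each library in turn, TKO mES cells ran from -0.18 to -0.16, the latter without WT mES cell replicate 7; no other median or count moved. Of 138 changes given for named genes, which passed the test, all kept their direction, and 23 of 928 alternative values and 50 of 1580 with a library left out no longer passed. Depth limits members near 1 CPM.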
